A study of Mus musculus with 8 samples.

Results

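The peaks described here are the H3.3-HA peaks of Hira-null mouse cells before and after differentiation, split into those lost, kept and gained between day 0 and day 15. The Hira-null lists held 17706 peaks at day 0 and 7332 at day 15, or 25038 of the 75040 peaks of the series. A day 0 peak was called kept when a day 15 peak of Hira-null cells overlapped it by at least 1 bp and lost when none did. A day 15 peak was called kept or gained by the same rule read from the other side. These names compare 2 lists of called peaks and say nothing of a cause.

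The study mapped H3.3 carrying an HA tag by native ChIP-seq, with chromatin cut by micrococcal nuclease and precipitated with an anti-HA antibody. Hira-null cells were Clone104, a single clone of mouse embryonic stem cells (mESCs) without HIRA, and WT cells were W9.5 mESCs. Day 0 samples were undifferentiated mESCs, and day 15 samples came from hanging drops differentiated towards cardiomyocytes, a mixed culture. Each genotype and day had 1 ChIP library and 1 input library, so differences between days have no replicate check and no test was made. Clone and genotype cannot be told apart, and in bulk samples fewer cells that carry H3.3 at a site and less H3.3 per cell cannot be told apart.

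H3.3 is a histone H3 variant that is placed into chromatin outside replication. The HIRA complex delivers it to genes and their regulatory elements, whereas DAXX and ATRX deliver it to telomeres and to repeats such as endogenous retroviruses. In mESCs, retroviral repeats are silenced by TRIM28 with KRAB zinc finger proteins, which recognise their sequences.

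Day 0 and day 15 peaks of Hira-null cells shared few positions. Of the 17706 day 0 peaks, 16069 were lost, or 90.8% (95% interval 90.3 to 91.2). Of the 7332 day 15 peaks, 5610 were gained, or 76.5% (75.5 to 77.5). The kept peaks numbered 1637 on the day 0 side and 1722 on the day 15 side, since some peaks overlapped more than 1 peak of the other day. All intervals are exact Clopper-Pearson intervals and cover counting error over peaks only. Read depth was unknown for both libraries, and the number of peaks called moves with it.

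The sequences of the highest-scoring peaks of each group are shown as 200 bases around the peak midpoint on mm9, with every CpG in capitals, for the top pair of each group outside coding exons and untranslated regions. The kept pair came from 12 kept day 15 peaks tied at the highest score, 3100. Both gained peaks shown also scored 3100, so the order within the kept and gained pairs is not a ranking.
Lost, highest score (near Cyp2b23, chr7:27482463-27482662, plus strand): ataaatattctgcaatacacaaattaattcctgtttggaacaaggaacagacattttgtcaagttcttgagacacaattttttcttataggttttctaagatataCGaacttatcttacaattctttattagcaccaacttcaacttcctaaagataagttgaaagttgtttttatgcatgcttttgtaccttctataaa
Lost, second (in the lincRNA gene Gm16889, chr4:146843059-146843258, plus strand): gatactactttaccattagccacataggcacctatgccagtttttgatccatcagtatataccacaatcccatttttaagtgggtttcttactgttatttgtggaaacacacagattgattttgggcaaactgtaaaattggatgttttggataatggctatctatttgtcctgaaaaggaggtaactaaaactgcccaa
Kept, first (by Hnrnpu and Fam36a, chr1:180256722-180256921, plus strand): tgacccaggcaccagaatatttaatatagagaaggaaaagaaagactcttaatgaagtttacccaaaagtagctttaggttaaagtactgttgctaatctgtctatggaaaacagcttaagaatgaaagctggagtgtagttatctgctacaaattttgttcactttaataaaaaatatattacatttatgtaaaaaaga
Kept, second (near Prox1, chr1:192125983-192126182, plus strand): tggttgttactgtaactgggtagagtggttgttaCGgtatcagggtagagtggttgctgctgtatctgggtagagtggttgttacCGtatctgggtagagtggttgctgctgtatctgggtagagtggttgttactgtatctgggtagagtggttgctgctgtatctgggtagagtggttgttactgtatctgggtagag
Gained, highest score (intron of D15Ertd621e, chr15:58270304-58270503, plus strand): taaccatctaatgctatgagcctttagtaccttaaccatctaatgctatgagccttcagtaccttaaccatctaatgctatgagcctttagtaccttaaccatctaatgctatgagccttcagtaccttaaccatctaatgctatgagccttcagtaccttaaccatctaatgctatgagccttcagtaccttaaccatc
Gained, second (intron of D5Ertd579e, chr5:37052325-37052524, plus strand): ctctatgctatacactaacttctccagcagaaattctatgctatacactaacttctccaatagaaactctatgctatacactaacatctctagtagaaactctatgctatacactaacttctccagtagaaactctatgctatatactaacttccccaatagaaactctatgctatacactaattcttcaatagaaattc

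In the sequence near Cyp2b23, the median 25-mer (a word of 25 bases) had 1 copy in the genome, and 137 of 176 had no other. In the sequence at Gm16889, the median was 1247 copies. In the sequence by Hnrnpu, which encodes a nuclear RNA-binding protein, all 176 of the 25-mers had 1 copy. The sequences near Prox1 and in D15Ertd621e were short units repeated in tandem, with up to 76 and 92 copies of a 25-mer. The sequence in D5Ertd579e had the same layout.

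Lost peaks lay in multicopy sequence more often than kept or gained peaks and than points of the genome. A 1 kb window around each midpoint was called multicopy when at least 50% of its sampled 25-mers had 10 or more copies in the genome. By this measure 42.7% of lost peaks (41.9 to 43.5), 20.2% of kept day 15 peaks (18.3 to 22.2) and 9.15% of gained peaks (8.41 to 9.94) were multicopy. Points set every 100 kb along the genome gave 9.996%. With 100 or more copies required, the shares were 30.9% of lost, 4.37% of kept, 0.339% of gained peaks and 6.16% of genome points. Read from the day 0 side, 98.4% of the 5040 peaks in such highly repeated windows were lost (98.0 to 98.8), against 85.0% of the 2027 peaks whose sampled 25-mers all had fewer than 10 copies (83.4 to 86.5). How the authors' alignment placed reads with several matches is not given in the sources used here, and its part in these shares was not tested.

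Single repeat words were shared by many lost peaks. To find them, the 25-mer held by most peaks of a group was taken, its peaks were set aside, and the search was repeated. This search was made after the data were seen and chose words by their count in that group, so their counts are a description. The words below were picked from those found after their values were seen, as examples from each group. Each line gives 100 bases around the word, which is in capitals, from the highest-scoring peak outside exons among the peaks considered. Peaks that held a word found earlier in the search were not considered, and not every chromosome was used. A peak with a higher score may therefore hold the same word.
Word lost a (chr13:12951837-12951936, plus strand): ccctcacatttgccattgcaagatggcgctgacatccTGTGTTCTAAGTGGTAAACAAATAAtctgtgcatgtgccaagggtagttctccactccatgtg
Word lost b (chr16:22035366-22035465, plus strand): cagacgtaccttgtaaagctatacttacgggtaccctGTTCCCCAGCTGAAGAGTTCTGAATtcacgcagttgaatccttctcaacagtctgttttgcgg
Word lost c (chr3:136945280-136945379, plus strand): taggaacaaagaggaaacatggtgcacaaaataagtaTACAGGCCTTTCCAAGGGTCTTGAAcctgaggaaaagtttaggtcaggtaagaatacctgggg
Word kept a (chr10:46505570-46505669, plus strand): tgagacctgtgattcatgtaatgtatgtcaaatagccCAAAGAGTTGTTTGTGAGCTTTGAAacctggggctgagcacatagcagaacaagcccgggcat
Word gained a (chr10:22061988-22062087, plus strand): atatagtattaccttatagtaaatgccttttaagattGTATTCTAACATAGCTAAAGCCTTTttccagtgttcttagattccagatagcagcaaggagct

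Word lost a was present in 3478 lost peaks, or 21.6% of the group, in 7 kept day 15 peaks and in 0 gained peaks. From background knowledge it belongs to the long terminal repeat of intracisternal A-particle elements, a mouse endogenous retrovirus family; no repeat annotation was used. Of its 5055 genome copies, 3909 (77.3%) lay in Hira-null day 0 peaks and 10 (0.198%) in Hira-null day 15 peaks. WT day 0 peaks covered 416 copies (8.23%) and WT day 15 peaks 1 copy. Among the 4 lists, the day 0 lists held nearly all covered copies of this word, and the Hira-null list held more than the WT list. The 3478 peaks had a median width of 2903 bp, and 78.4% lay in distal intergenic sequence.

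Word lost b was held by 1132 lost peaks, with 71.0% of its 2105 copies in Hira-null day 0 peaks and 0.760% in day 15 peaks. Word lost c had 98.3% of its 1847 copies in day 0 peaks and 1.08% in day 15 peaks. In WT day 0 peaks these shares were 38.4% for word b and 30.5% for word c, and WT day 15 peaks covered no copy of either. The words shared peaks: 775 of the 1132 with word b and 413 of the 1787 with word c held no word found earlier. A further word of lost peaks, not printed, had 28.2% of its 2906 copies in Hira-null day 0 peaks and 2.44% in day 15 peaks. Word kept a behaved less sharply. It had 624 copies, of which 79.0% lay in day 0 peaks and 25.2% in day 15 peaks, and it was the word held by most kept day 15 peaks, 151 of 1722, and by 335 lost peaks.

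Gained peaks also shared repeat words, some of them as common in lost peaks. A CA repeat word was held by 3.725% of gained, 3.31% of kept and 3.35% of lost peaks. Word gained a had 360 genome copies, of which 2 lay in Hira-null day 0 peaks and 217 (60.3%) in day 15 peaks. It was held by 210 gained peaks and 1 lost peak, and WT day 15 peaks covered 98 copies (27.2%). These 210 peaks had a median width of 938 bp, and 77.6% lay in distal intergenic sequence.

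**Figure D1:**
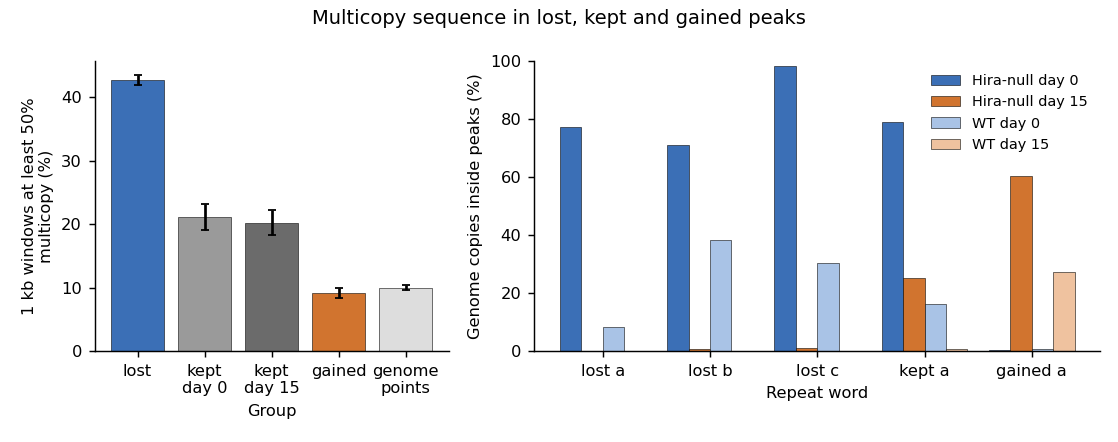
Multicopy sequence in Hira-null peaks. Left, bars give the percentage of 1 kb windows that were at least 50% multicopy, with 95% Clopper-Pearson intervals, for each group and for genome points: 42.7% of lost and 9.15% of gained peaks. Right, bars give the percentage of genome copies of 5 repeat words inside the peaks of each list: words lost a to c stand in day 0 peaks and word gained a in day 15 peaks.

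Peaks over tandem repeats were kept more often than other peaks. A window was called tandem when at least 50% of its 12-base words occurred at least 3 times within it. Such windows made up 15.1% of kept day 15 peaks, 4.69% of gained peaks, 0.716% of lost peaks and 0.184% of genome points. Of the 370 day 0 peaks of this kind, 31.1% were lost (26.4 to 36.1), and they made up 15.6% of the kept day 0 peaks. Lost peaks were also richer in CpG: the median ratio of observed to expected CpG was 0.312 in lost, 0.221 in kept day 15 and 0.179 in gained peaks, and 0.160 at genome points.

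The strongest day 15 peaks were kept more often than the weak ones. Scores are the peak caller's and were compared only within a list. In the highest-scoring 10% of the day 15 list, 50.7% were gained (47.0 to 54.4), and in the lowest 10% 84.2% (81.3 to 86.7). Of the 14 day 15 peaks at the highest score, 3100, 12 were kept. At day 0, loss ran from 85.3% in the highest 10% to 93.5% in the lowest, so strong day 0 peaks were mostly lost too. The highest 10% of the day 0 list were 63.5% multicopy.

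Day 15 peaks were narrower than day 0 peaks also where both days had one. Median width was 1512 bp for lost, 1532 bp for kept day 0, 886 bp for kept day 15 and 749 bp for gained peaks. In the 1509 pairs of 1 day 0 peak with 1 day 15 peak, the median width was 1497 bp at day 0 and 876 bp at day 15, and 79.6% were narrower at day 15. The midpoints of a pair were a median of 150 bp apart, and in 97.02% of pairs at least 50% of the day 15 peak was covered. Peaks of at least 4 kb numbered 709 among the lost and 56 among the gained. With the day 0 list held to its 7332 highest scores, the median width of lost peaks was 2496 bp. The lost group covered 30.0 Mb and the gained group 5.28 Mb.

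**Figure D2:**
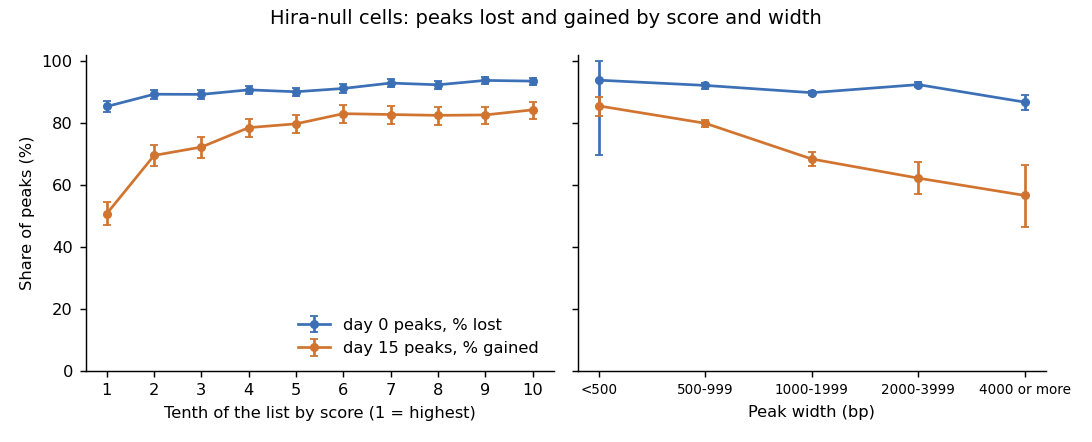
Share of Hira-null day 0 peaks that were lost (blue) and of day 15 peaks that were gained (orange), in percent with 95% Clopper-Pearson intervals, by score in bins of 10% of the list (left) and by peak width in bp (right). The gained share goes from 50.7% in the highest bin to 84.2% in the lowest, while the lost share stays between 85.3% and 93.7%.

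Most lost and gained peaks were not small shifts of a peak. The nearest day 15 peak was a median of 156 kb away from a lost peak, and 9.38% of lost peaks had one within 12 kb. The nearest day 0 peak was a median of 49.9 kb away from a gained peak, and 19.9% had one within 12 kb. The difference in list length moves these distances. Against the WT lists, 31.4% of lost peaks overlapped a WT day 0 peak and 2.25% a WT day 15 peak. Of gained peaks, 12.9% overlapped a WT day 0 peak and 32.7% a WT day 15 peak. Kept day 15 peaks overlapped a WT peak of either day in 52.2% of cases.

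The groups lay in different genomic classes. Distal intergenic sequence held 72.7% of lost peaks (72.0 to 73.4), 54.3% of kept day 15 peaks (51.9 to 56.7) and 45.7% of gained peaks (44.4 to 47.0), and 57.9% of the genome. The downstream class, the 3 kb past any protein-coding transcript end, held 2.95% of lost (2.69 to 3.22) and 10.2% of kept peaks (8.83 to 11.8). It held 16.5% of gained peaks (15.6 to 17.5) and 3.297% of the genome. Class shares called past gene ends use this class, which also takes in ends of shorter transcripts inside genes. Gained peaks were therefore 5.02 times as frequent in this class as its bases are in the genome, and lost peaks 0.895 times. In 3' untranslated regions the share was 0.286% for lost and 2.37% for gained peaks, and in promoters, here 3 kb upstream of a transcript start, 2.03% and 5.92%, against 3.43% of the genome. Introns held 21.7% of lost and 28.2% of gained peaks, and 33.5% of the genome.

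**Figure D3:**
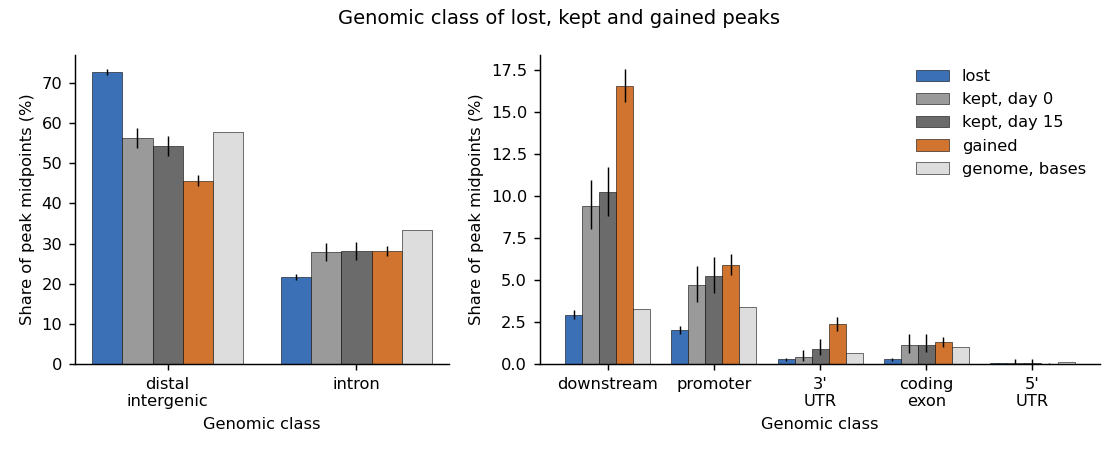
Percentage of peak midpoints in each genomic class for lost, kept (day 0 and day 15 side) and gained Hira-null peaks, with 95% Clopper-Pearson intervals, beside the percentage of genome bases; the 2 panels have different scales. Lost peaks stand highest in distal intergenic sequence and gained peaks highest downstream of transcript ends.

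Gained peaks gathered at gene ends, and fewer lay at gene starts. Within 1 kb of the nearest protein-coding gene end lay 488 gained peaks, or 8.70%, 85 kept day 15 peaks, or 4.94%, and 183 lost peaks, or 1.14%. Within 1 kb of a gene start the shares were 1.64%, 1.86% and 0.541%. Further upstream, from 4 to 5 kb before a start, there were 18.5 gained, 15.7 kept day 15 and 9.52 lost peaks per 1000. In the first kb after a start there were 4.1, 6.97 and 1.87, so all these groups dipped there. In the first kb past the end there were 47.1 gained and 6.66 lost peaks per 1000 peaks of the group. The loss of day 0 peaks was less complete in the downstream class, where 75.5% of 628 peaks were lost, than in distal sequence, where 92.7% of 12602 were.

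**Figure D4:**
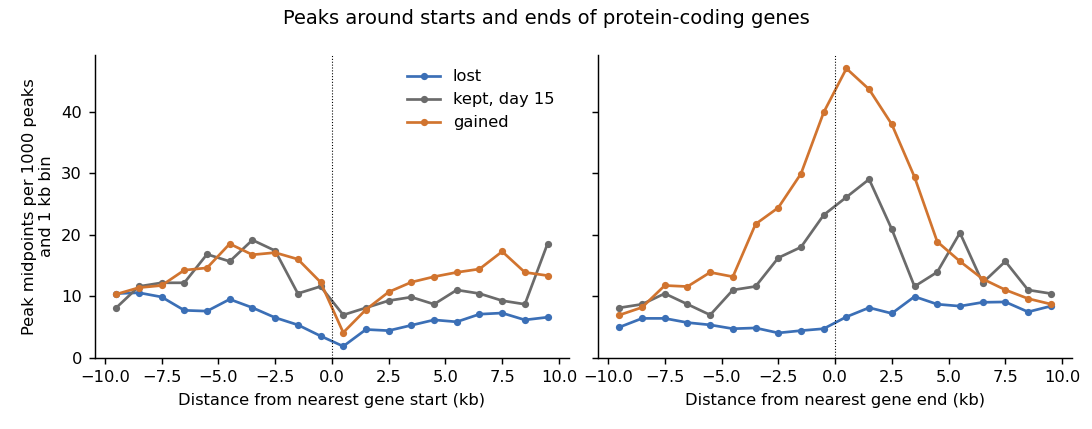
Peak midpoints per 1000 peaks of the group in 1 kb bins against distance in kb from the nearest start (left) and end (right) of a protein-coding gene, with the gene direction running left to right. Gained peaks reach 47.1 per 1000 in the first kb past gene ends, where lost peaks have 6.66. All groups drawn dip at gene starts.

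The strongest peaks of each group were spread over the classes. Of the peaks taken, 3 of the 8 lost, 3 of the 8 kept and 3 of the 8 gained were in the downstream class. The 8 highest-scoring lost peaks were 4912 to 11281 bp wide and included peaks near Cyp2b23, in an intron of Ppa2 and by Ifitm7. Another, in the downstream class, touched both Jarid2, which encodes a Polycomb partner, and Dtnbp1. All 8 overlapped a WT day 0 peak and 0 overlapped a WT day 15 peak. The 8 kept peaks taken from the 12 with a day 15 score of 3100 included downstream-class peaks at Hnrnpu and at Npm1, which encodes a nucleolar histone chaperone. A further kept peak of this class touched Eif4a2, a translation initiation factor gene. The peak at Hnrnpu also touched Fam36a, and that at Eif4a2 also touched Rfc4. The gained peak at Tpm1, which encodes a tropomyosin of muscle thin filaments, was 9187 bp wide with a score of 2035, overlapped a WT day 15 peak and had no WT day 0 peak. Gained peaks of the downstream class also touched Bzw1 together with Clk1, and Brd2, which encodes a bromodomain protein, with scores of 2868 and 2085.

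Counted by gene, 3716 of 22367 protein-coding genes (16.6%) had a lost peak, 839 (3.75%) a kept day 15 peak and 2385 (10.7%) a gained peak in a window reaching 10 kb before the start and 200 bp after the end. Genes with a peak numbered 4223 at day 0 and 2977 at day 15. The 1368 genes with a peak on both days were 32.4% of the first set and 46.0% of the second. Of these, 538 had lost and gained peaks and none kept. Gene windows held 33.3% of lost, 50.2% of kept day 15 and 54.3% of gained peaks. Genes with a day 0 peak had a median window of 52.74 kb, and genes with no peak 21.75 kb. Longer windows can catch more peaks, and the shares of gene lists below were not adjusted for window length. With lists of equal length the order turned, with 1732 genes with a lost and 2662 with a gained peak, and with peaks scoring below 100 left out 433 had a kept and 1271 a gained peak.

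Genes with many gained peaks included Fubp1, which encodes a DNA-binding regulator of Myc, and Myh9, which encodes a nonmuscle myosin heavy chain. Each had 12 gained and 0 lost peaks. Igf2r, the imprinted gene of a receptor that clears IGF2, had 11 gained and 1 kept day 15 peak, and Peg3, a paternally expressed zinc finger gene, had 10 gained and 0 lost. In WT, Peg3 had 0 peaks at day 0 and 4 at day 15. The glucose transporter gene Slc2a3 had 6 kept day 15 peaks, 2 gained and 0 lost, and Slc2a1 had 4 kept, 0 gained and 0 lost. Genes with most lost peaks were mainly long gene models: Etl4 had 14 lost peaks in a window of 911.1 kb, Sntg1 12 and Fhit 11. Ctbp2, a corepressor gene, had 10 lost and 0 gained peaks in 147.0 kb, and Prkar1b had 9 lost and 0 gained. The gene models Gm20388 and Fgfr2 had most lost peaks, 31 and 20, but span 4445 and 3019 kb in this annotation and cover many other genes.

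Of 26 pluripotency genes, 7 had a lost peak and 1 had a day 15 peak. The lost share was 26.9% against 16.6% of all genes. A kept peak was present at 0 and a gained peak at 1, or 3.85%, against 3.75% and 10.7% of all genes. These counts are small. Esrrb, a nuclear receptor gene of the naive state, had 4 lost peaks and 1 gained. Nanog, Zfp42 and Tet1 had 2 lost peaks each, and Dppa3, Tdgf1 and Dnmt3b 1 each. These are peaks of H3.3 and not expression.

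Most of the matrix genes and some of the muscle genes listed had gained peaks. In the fibroblast and matrix list, 10 of 14 genes had a gained peak, 71.4% against 10.7% of all genes, 2 a kept peak and 0 a lost peak. The median window of this list was 47.65 kb, against 25.63 kb for all genes. The collagen gene Col3a1 had 7 gained peaks, Col5a1 4, Col1a1 3 and Col1a2 2, and the fibronectin gene Fn1 had 4. With peaks scoring below 100 left out, 6 genes of this list had a gained and 1 a lost peak. Smooth muscle genes had a gained peak at 4 of 10 (40%), with 5 at Cald1, 3 at Acta2 and 2 at Tagln. A lost peak was present at 2 of the 10 (20%, against 16.6% of all genes), with 1 each at Cald1 and Mylk. Cnn1 had 1 kept peak and 0 gained. Of 23 sarcomere and contraction genes, 6 had a gained peak, with 8 at Tpm1 and 6 at Nexn, which encodes a Z-disc protein. The other genes of this list had no gained peak. A lost peak was present at 3 of the 23, with 3 at Ryr2, which also had 2 kept and 2 gained. Nexn had 1 lost peak, and Casq2 had 1 lost and 0 gained. Cardiac transcription factor genes had a gained peak at 5 of 27, or 18.5%, and a lost peak at 3, or 11.1%. Gata4, a zinc finger factor of heart development, had 6 gained peaks and 1 lost. Tbx5 had 2 gained peaks and Mef2a 2 lost peaks and 0 gained. Hopx had 1 kept peak. Of 12 endoderm genes 2 had a gained peak, of 14 endothelium and blood genes 3, and of 16 neural genes 1. A lost peak was present at 0 of the endoderm, 3 of the endothelium and blood (21.4%) and 4 of the neural genes (25%). These counts are small, and their part in the makeup of the day 15 culture was not tested.

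Imprinted genes, expressed from 1 parental copy, had a gained peak at 23 of 44, or 52.3%, a kept peak at 9 (20.5%) and a lost peak at 8 (18.2%). All genes stood at 10.7%, 3.75% and 16.6%, so the lost share was near that of all genes. A peak was counted in every gene window it touched, so neighbouring genes may share peaks and are not all separate loci. How many share peaks was not counted. After Igf2r and Peg3, Kcnq1 and Ddc had 8 gained peaks each, the paternally expressed growth factor gene Igf2 had 5, Mest 4, and Dlk1, Peg10, Gnas and Zim1 3 each. At Igf2 the WT lists held 0 peaks on either day. Ppp1r9a differed from these, with 6 lost peaks and 1 gained. Ribosomal protein genes had a gained peak at 31 of 82, or 37.8%, a kept peak at 10 (12.2%) and a lost peak at 8 (9.76%). Rpl4, Rpl23 and Rps10 had 3 gained peaks each. Housekeeping genes had one at 5 of 15 (33.3%), Actb with 2 among them.

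The receptor families went the other way. Of 321 vomeronasal receptor genes, 37 had a lost peak (11.5%), 1 a kept and 1 a gained peak. Of 1113 olfactory receptor genes, 69 had a lost peak (6.20%), 1 a kept and 9 a gained peak. Both lost shares were below the 16.6% of all genes. Median windows were 11.29 kb for vomeronasal and 11.16 kb for olfactory receptor genes, against 25.63 kb for all genes. Genes named Zfp, many of which encode KRAB zinc finger proteins, had a lost peak at 84 of 367 (22.9%), a kept peak at 27 and a gained peak at 60. All genes stood at 16.6%, 3.75% and 10.7%. With lists of equal length the order turned, with 40 Zfp genes with a lost and 69 with a gained peak. Counted in gene bodies without flanks, 49 of 367 Zfp, 17 of 321 vomeronasal and 8 of 1113 olfactory receptor genes had a lost peak. A gained peak was then present at 0 olfactory receptor genes. By the same count, 2528 of all 22367 protein-coding genes had a lost and 1684 a gained peak. Replication-dependent histone genes had few peaks, with 3 of 67 lost, 1 kept and 0 gained.

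Of 10 genes of the HIRA complex and other H3.3 chaperones, 4 had a lost, 1 a kept and 3 a gained peak, or 40%, 10% and 30%, against 16.6%, 3.75% and 10.7% of all genes. Atrx had 2 lost peaks and 0 gained, and Daxx 1 gained and 0 lost. H3f3a and H3f3b, which encode H3.3 itself, had 4 and 1 gained peaks and 0 lost. At Hira, 1 lost and 2 kept peaks lay in the window, and peaks do not check the deletion. Of 16 heterochromatin genes 7 had a lost (43.8%), 2 a kept and 5 a gained peak (31.3%). With lists of equal length 2 heterochromatin and 1 chaperone gene had a lost peak, and with peaks scoring below 100 left out both lists had 2. Zfp57, a KRAB zinc finger gene of imprint maintenance, and Morc3 had 3 lost and 0 gained peaks, and Rif1 2 lost and 0 gained. The demethylase gene Kdm1a had 6 gained and 0 lost, and the HP1 genes Cbx3 and Cbx5 had 4 and 3 gained and 1 kept peak each.

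**Figure D5:**
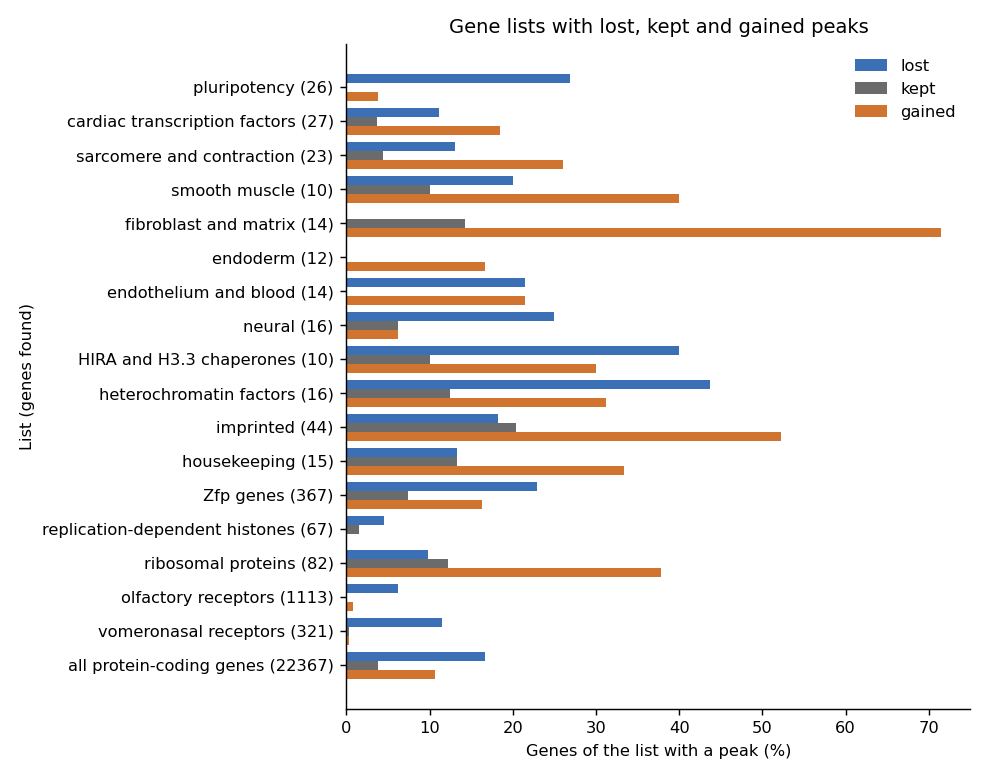
Percentage of genes in each list with a lost (blue), kept (grey) or gained (orange) Hira-null peak in the gene window, with the number of genes found in brackets and all protein-coding genes at the bottom. Gained peaks are at 71.4% of the fibroblast and matrix genes and 52.3% of imprinted genes, against 10.7% of all genes. A peak counts for every gene window it touches.

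Peaks were grouped into domains by joining those up to 12 kb apart. There were 128 domains of at least 5 peaks at day 0, of which 72 (56.3%, 47.2 to 65.0) had no day 15 peak. At day 15 there were 123, of which 74 (60.2%, 51.0 to 68.9) had no day 0 peak. These held 4.60% of day 0 peaks and 11.3% of day 15 peaks. For domains of at least 2 peaks the order was the other way, with 52.5% of day 0 and 39.5% of day 15 peaks. With the day 0 list held to 7332 peaks, day 0 had 8 domains of at least 5 peaks. The day 0 domain with most peaks, at chr10:82840576-82948266 near Aldh1l2, had 24 peaks over 107.7 kb and 0 day 15 peaks. Another, at chr6:37669169-37808067 near Trim24, had 21 peaks over 138.9 kb and 6 at day 15. The day 15 domain with most peaks, at chr6:114524841-114587772 near the autophagy gene Atg7, had 21 peaks over 62.9 kb and 0 day 0 peaks. A neighbour at chr6:114440589-114509102 near the histamine receptor gene Hrh1 had 16 and 0. The domain over Fubp1 and Nexn, at chr3:151882926-151914509, had 17 peaks and 0 at day 0. In WT cells it held 6 peaks at day 0 and 10 at day 15.

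Over windows of 1 Mb, 2318 of the 2530 with a peak had more sequence covered at day 0 and 212 more at day 15. The largest falls were at chr4:146000001-147000000, with Zfp600, from 185.4 to 34.4 kb, and at chr13:66000001-67000000, with Zfp640, from 173.5 to 27.9 kb. A window at chr13:62000001-63000000 with Zfp808, Zfp934 and Zfp935 went from 121.7 to 15.3 kb. The remaining 2 windows of the 5 largest falls held no gene named Zfp, and zinc finger genes under other names were not sought. Of these, the window at chr4:145000001-146000000, with Rex2 and several Gm gene models, adjoins that of the largest fall. The largest rise was at chr6:114000001-115000000, with Hrh1 and Atg7, from 3.52 to 124.5 kb, where WT cells had 0.621 and 31.5 kb. The next rises were much smaller, 28.99 kb at chr17:15000001-16000000 with Phf10 and 26.8 kb at chr7:71000001-72000000.

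Chromosome X stood apart from the autosomes. It had 615 day 0 peaks, of which 98.1% were lost, and 99 day 15 peaks, or 0.161 day 15 peaks for each day 0 peak. On autosomes this ratio ran from 0.332 on chromosome 14 to 0.649 on chromosome 19. The day 0 peaks of chromosome X were 78.8% multicopy, against 40.7% of the whole day 0 list.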

How the data were processed

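H3.3-HA ChIP-seq peak lists of Hira-null and WT cells at day 0 and day 15 were used, 1 list per condition. Per the labels and the methods, the authors aligned paired-end reads to mm9 with Bowtie, removed duplicates with Samtools and called peaks with MACS 1.4.2 at default settings. The deposited score of each peak is the authors' peak caller value, a scaled negative log10 of its p-value, with 50 as the lowest score in both Hira-null lists. The input used for each list was not checked, and depth is unknown.

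Overlaps, classes and gene windows were computed with Python 3.11.15, numpy 2.4.6, pandas 2.3.3 and scipy 1.17.1, and figures with matplotlib 3.10.9. Genes were those of GENCODE M1 on NCBIM37, the same build, with 22367 protein-coding genes. Each midpoint was given the first fitting class in the order promoter, downstream, 5' untranslated, 3' untranslated, coding exon, intron and distal intergenic. Copies of 25-mers were counted on both strands of chromosomes 1 to 19, X and Y, with every 25th word of a window sampled. Overlap code was tested on simulated data and against bedtools 2.31.1. Named items were the 8 highest-scoring peaks of each group, the 10 genes with most peaks, the 5 domains with most peaks of each day, the 5 windows that changed most in each direction and list members, of which those that show the result were printed. The groups and gene lists were chosen with earlier results of these data known. Sox1 and Map2 of the neural list and Airn of the imprinted list were not found among protein-coding genes of this annotation. No p-values were computed. A repeat word of the gained peaks is not reported here.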

Additional observations from a re-analysis of the deposited data

How the results depend on the processing

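With 1 library per condition there is no replicate to leave out, and no paired analysis was possible because each condition has 1 library. Of 71 planned comparisons of a main value with an alternative, 31 stayed within the main interval (1.5 times for counts) and 40 moved, none turning the order of lost, kept and gained peaks in distal sequence or past gene ends. The lost and gained shares were 94.4% and 77.6% with 50% overlap, 89.7% and 74.0% with the other list widened by 1 kb, 93.4% and 77.7% without peaks scoring below 100, 88.7% and 87.4% with lists of equal length, 91.18% and 78.2% with 1 kb around midpoints, and 89.8% and 75.03% with peaks within 1 kb merged. Without peaks scoring below 100, distal shares were 74.0% of lost and 49.9% of kept peaks, 17.9% of gained peaks lay past gene ends, median widths of lost, kept and gained peaks were 2079, 1204 and 1050 bp, and 433 genes had a kept and 1271 a gained peak. With lists of equal length, 1732 genes had a lost, 458 a kept and 2662 a gained peak, so the order of lost and gained genes turned, 74.9% of lost peaks were distal and 2.59% past gene ends, widths of lost and gained peaks were 2496 and 761 bp, day 0 had 8 domains of at least 5 peaks, and 74.8% of day 15 domains had no day 0 peak. With class by any overlap, distal shares of lost and gained peaks were 71.3% and 44.1%, and 4.09% of lost, 11.8% of kept and 19.1% of gained peaks lay past gene ends. With a promoter of 1 kb, distal shares were 73.7% and 47.5%, and 17.7% of gained peaks lay past gene ends. Merging gave widths of 1548 bp for lost and 916 bp for kept peaks. Joining at 5 and 25 kb gave 49 and 332 day 0 domains. Alternatives for multicopy sequence were chosen after seeing the data: 100 copies gave 30.9%, 4.37% and 0.339% of lost, kept and gained peaks, and lists of equal length gave 57.6% of lost peaks. Of 204 counts for single gene lists, 140 stayed within 1.5 times. The cause of these moves was not tested, beyond the fewer peaks that a higher score or a shorter list leaves. Unknown depth, 1 clone and unknown handling of reads with several matches limit all values.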

Other observations

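A further repeat word was found more often in day 15 peaks. The word held by 40 kept and 52 gained peaks but 2 lost peaks lay in a run that, from background knowledge, encodes the linker between zinc fingers. Of its 637 copies, 40.7% lay in Hira-null day 0 peaks and 76.0% in day 15 peaks, and in WT cells 31.6% at day 0 and 19.3% at day 15. The word was chosen after its values were seen. Where the copies lie relative to zinc finger genes was not tested, and 60.0% of the 40 kept peaks were in distal intergenic sequence.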
